A study of Mus musculus with 12 samples.

Results

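The 71 genes here belong to 8 solute carrier families of glucose and amino acid transport: Slc1a, Slc2a, Slc3a, Slc6a, Slc7a, Slc36a, Slc38a and Slc43a. Some members carry other substrates, and all 71 are called transporter genes here. They were taken by symbol from the 20665 protein-coding genes that RefSeq places on the 19 mouse autosomes, by a rule on names alone, set with earlier results of these data known. SOX2 was mapped by chromatin immunoprecipitation and sequencing (ChIP-seq) in E14 cells, an established mouse embryonic stem cell line. ChIP libraries (3) and input libraries (3) came from asynchronously growing cells, and the same numbers came from mitotic cells. The culture medium of all 4 groups held leukemia inhibitory factor, serum (10%), CHIR99021 (3 μM), which inhibits GSK3, and PD184352 (0.8 μM), which inhibits MEK. The mitotic groups were in addition synchronized overnight with nocodazole, a microtubule poison, and sorted for H3S10p, a histone mark of mitotic chromosomes. Each condition has 1 list of SOX2 regions called on its pooled replicates, with 10351 distinct regions in asynchronous and 84 in mitotic cells. No count or level per replicate was used, the sequencing depth is unknown, and no statement below rests on replicate spread. All positions are on mm10. The stem cell genes Sox2, Pou5f1, Nanog, Esrrb and Tfcp2l1 had 3, 6, 3, 6 and 4 asynchronous regions within 50 kb.

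SOX2 is an HMG-box transcription factor that binds DNA together with POU5F1 (OCT4) at many enhancers of pluripotent cells. Solute carriers are membrane proteins that move small molecules along or against a gradient. The Slc2a family carries hexoses and related polyols, mostly without ion coupling, and embryonic stem cells rely heavily on glycolysis. Amino acids enter through sodium-coupled carriers (Slc1a, Slc6a, Slc38a), proton-coupled carriers (Slc36a), uniporters (Slc43a) and exchangers, in which a light chain of the Slc7a family pairs with a heavy chain of the Slc3a family. Glutamine and threonine supply are known to matter for mouse embryonic stem cells.

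Asynchronous SOX2 regions lay around transporter genes about as often as around other genes. A gene was counted when the midpoint of a region fell inside its span or within 50 kb of either end. By this measure 34 of the 71 genes (47.9%, exact Clopper-Pearson 95% interval 35.9 to 60.1%) had an asynchronous region, against 47.2% of all autosomal protein-coding genes. Longer genes have wider windows, so the share was also taken from other genes in the same 10 classes of span length, weighted as the transporters are, which gave 52.3% (37.1 genes). Within 10 kb the count was 20 of 71 (28.2%), where all genes had 24.7% and genes of the same length 29.0%. A region midpoint fell inside 14 spans (19.7%), with 15.4% for all genes and 19.6% for genes of the same length. The intervals cover counting error only, and neighbouring genes can share a region, so they are too narrow to the extent that genes are not independent.

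The families spread widely around this share. A region was within 50 kb of 7 of 10 Slc38a genes (70%, exact interval 34.8 to 93.3%), 4 of 7 Slc1a genes (57.1%, 18.4 to 90.1%) and 2 of 3 Slc43a genes (66.7%, 9.43 to 99.2%). Both Slc3a genes had one. The Slc6a family had 9 of 19 (47.4%, 24.5 to 71.1%) and the Slc7a family 6 of 14 (42.9%, 17.7 to 71.1%). The lowest shares were 3 of 12 Slc2a genes (25%, 5.49 to 57.2%) and 1 of 4 Slc36a genes (25%, 0.631 to 80.6%). Genes of the same length classes as each family had shares between 47.4% (Slc3a) and 55.4% (Slc1a), and every family's interval includes its own length-class value.

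**Figure D1:**
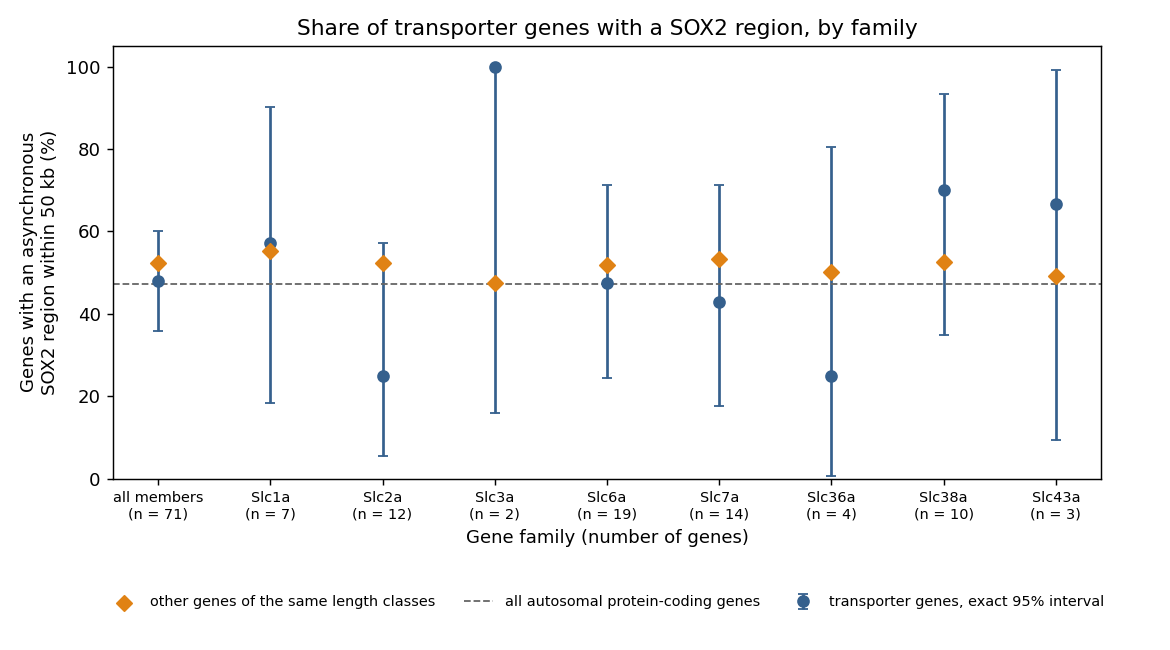
Share of genes (%, vertical axis) with an asynchronous SOX2 region within 50 kb, for all 71 transporter genes and for each family (horizontal axis); circles with bars are the observed share and its exact 95% interval, diamonds the share in other genes of the same length classes, and the dashed line all autosomal protein-coding genes (47.2%). The Slc2a and Slc36a families lie at 25% and Slc38a at 70%, all with intervals that reach across the dashed line.

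Transporter genes with a region held more of them on average than other genes with a region. The 34 genes had a mean of 2.06 regions each, and all genes with a region a mean of 1.70. At least 3 regions were found for 11 of 71 transporter genes (15.5%, exact interval 8.0 to 26.0%), against 7.75% of all autosomal genes and 8.36% of genes of the same length. Exactly 1 region was found for 12 transporter genes (16.9%), whereas 28.0% of all genes had 1. The numbers were 11 genes with 2 regions, 10 with 3 and 1, Slc2a3, with 6. The excess over all genes was at 2, 3 and 6 regions, and no transporter gene had 4, 5 or more than 6. Some neighbouring genes among the 11 share regions with each other. This pattern in the number of regions was seen on inspection of the counts, and no test was made of it.

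**Figure D2:**
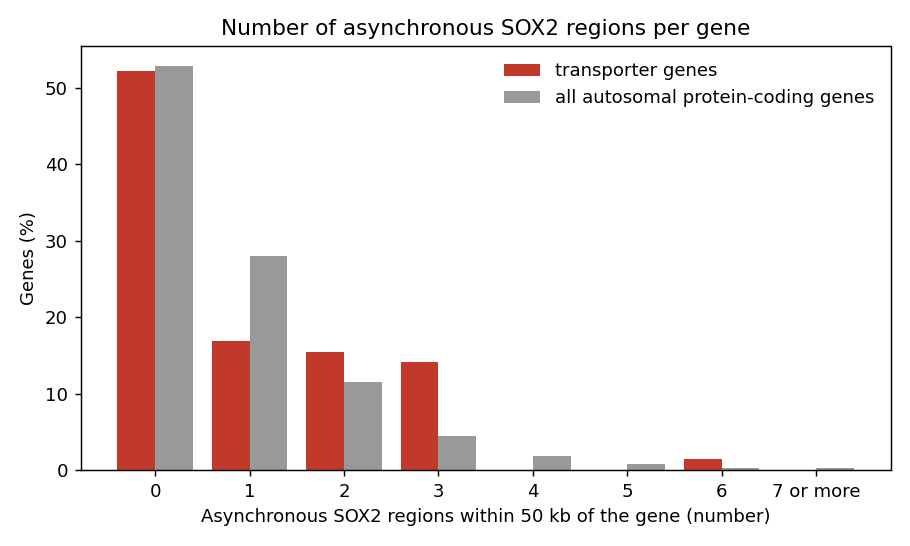
Percentage of genes (vertical axis) by the number of asynchronous SOX2 regions within 50 kb (horizontal axis), for the 71 transporter genes (red) and all 20665 autosomal protein-coding genes (grey). Transporter genes exceed all genes at 3 regions (14.1% against 4.5%) and lie below them at 1 region (16.9% against 28.0%), at 4 (0 against 1.85%), at 5 (0 against 0.784%) and at 7 or more (0 against 0.353%).

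The total came to 70 pairs of a gene and a region, made by 66 distinct regions. Of the pairs, 22 had the midpoint inside the gene. Where the RefSeq promoter table gives the strand, 18 pairs were upstream and 15 downstream of the gene, and a further 15 lay outside genes without an entry. A transporter gene was the nearest protein-coding gene of 43 of the 66 regions (65.2%), and the other 23 were nearer to another gene. Counting nearest genes only, 23 of the 71 genes (32.4%) had a region, against 23.9% of all genes and 29.2% of genes of the same length. Widths near transporter genes resembled the whole list: the median of the 66 was 271.5 bp against 289 bp, and 32 (48.5%) were wider than the list median.

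A midpoint within 1 kb of either end of the span was found for 6 transporter genes (8.45%, exact interval 3.17 to 17.5%), against 4.1% of all genes and 4.34% of genes of the same length: Slc1a5, Slc43a1, Slc6a7, Slc6a9, Slc6a16 and Slc7a5. RefSeq promoter windows (GRCm38.p6, the assembly named mm10, from 250 bases before to 50 after a start) were matched for 53 of the 71 genes, with 74 windows. None of the 74 overlapped an asynchronous region, and 358 of 20085 windows of autosomal protein-coding genes (1.78%) did. With 74 windows, a count of 0 was not distinguishable from this share. The region near the start of Slc6a16, placed below, begins just past the end of its window. The starts of the other 18 genes were not checked. Among them is Slc1a5, with a midpoint 0.148 kb outside its span, in a region that reached across that end.

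Among matched genes, the start closest to a region midpoint was that of Slc6a16, a member of the neurotransmitter transporter family without an established substrate. Its region at chr7:45240822-45241179 has its midpoint 248 bp downstream of the start. Slc1a4, a carrier of alanine, serine and cysteine, had a region 1.69 kb upstream of its start, and Slc43a1, a carrier of large neutral amino acids, one 1.895 kb upstream. The 250 bases before these 3 starts are shown because that of Slc6a16 is the closest to a region midpoint among the matched genes, and the others are the closest with the region upstream. They are at chr7:45240503-45240752 on the plus strand for Slc6a16, chr11:20332714-20332963 on the minus strand for Slc1a4 and chr2:84840073-84840322 on the plus strand for Slc43a1, each printed 5′ to 3′ in lower case as none holds a searched motif.
Slc6a16: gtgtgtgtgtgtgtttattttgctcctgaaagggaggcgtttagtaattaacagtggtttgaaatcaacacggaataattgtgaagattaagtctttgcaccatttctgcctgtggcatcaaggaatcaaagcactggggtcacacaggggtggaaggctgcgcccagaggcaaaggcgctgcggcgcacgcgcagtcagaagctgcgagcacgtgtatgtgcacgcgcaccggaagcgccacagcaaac
Slc1a4: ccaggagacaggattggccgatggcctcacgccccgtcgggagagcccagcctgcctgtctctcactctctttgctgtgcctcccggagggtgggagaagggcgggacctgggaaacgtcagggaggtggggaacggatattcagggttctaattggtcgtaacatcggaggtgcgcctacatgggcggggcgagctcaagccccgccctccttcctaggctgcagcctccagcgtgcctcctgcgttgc
Slc43a1: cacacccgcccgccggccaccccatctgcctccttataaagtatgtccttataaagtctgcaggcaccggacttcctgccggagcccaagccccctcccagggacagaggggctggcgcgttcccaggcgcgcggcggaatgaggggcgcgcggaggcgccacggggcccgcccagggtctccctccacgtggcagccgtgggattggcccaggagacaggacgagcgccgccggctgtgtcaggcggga

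These stretches hold 52.4%, 64.8% and 70.8% G or C and 14, 16 and 24 CG dinucleotides. Each was searched on both strands for a SOX motif (AACAATG), the octamer bound by POU factors (ATGCAAAT) and a short form of their composite (TTGTNATGC), which can overlap the other motifs, and none was found. Across whole windows, the SOX motif was in 1 of 74 transporter windows (1.35%) and in 3.18% of all windows, the octamer in 2 (2.70%) and in 1.67%, and the composite in 0 and in 0.548%.

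The 3 transporter windows with a motif belong to genes that had no region within 50 kb. They are shown, from the 250 bases before the start, with the motif in capitals, which reads on the opposite strand in each. Slc36a3, a proton-coupled amino acid carrier gene, holds the SOX motif (chr11:55151709-55151958, minus strand). The octamer is in Slc6a12, a betaine and GABA carrier (chr6:121342324-121342573, plus strand), and in Slc7a11, the light chain of the cystine and glutamate exchanger (chr3:50443614-50443863, minus strand). The nearest asynchronous regions were 285 kb, 278 kb and 196 kb from these 3 gene spans.
Slc36a3: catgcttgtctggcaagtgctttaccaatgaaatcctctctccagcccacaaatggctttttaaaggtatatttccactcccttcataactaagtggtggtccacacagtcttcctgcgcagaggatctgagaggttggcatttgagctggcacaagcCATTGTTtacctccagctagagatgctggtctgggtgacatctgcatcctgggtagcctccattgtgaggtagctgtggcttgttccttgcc
Slc6a12: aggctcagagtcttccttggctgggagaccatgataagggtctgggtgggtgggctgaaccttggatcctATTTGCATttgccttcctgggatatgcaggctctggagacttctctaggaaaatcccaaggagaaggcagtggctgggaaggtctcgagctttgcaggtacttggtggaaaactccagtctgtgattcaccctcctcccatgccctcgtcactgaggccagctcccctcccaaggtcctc
Slc7a11: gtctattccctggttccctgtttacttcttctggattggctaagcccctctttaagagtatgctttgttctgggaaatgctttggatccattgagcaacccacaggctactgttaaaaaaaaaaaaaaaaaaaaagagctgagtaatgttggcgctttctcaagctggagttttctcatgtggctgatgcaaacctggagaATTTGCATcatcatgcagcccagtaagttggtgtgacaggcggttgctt

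Among the hexose carriers, Slc2a3 had the most regions of all 71 genes. It encodes GLUT3, a high-affinity glucose carrier known from neurons and the early embryo, and spans chromosome 6, 122727809 to 122802363, next to Nanog. No RefSeq promoter window was matched for Slc2a3, so its regions are placed by the span and not by a start. Of its 6 regions, 4 had their midpoint inside the gene, at 122744873 to 122745072 (200 bp), 122765159 to 122765372 (214 bp), 122766086 to 122766318 (233 bp) and 122770297 to 122770730 (434 bp). The last was the widest inside the gene, at width percentile 83.7 of the asynchronous list. The other two, 585 and 471 bp wide, lay 24.96 and 20.4 kb outside on the lower-coordinate side and had Nanog as their nearest gene, at 4.64 and 0.1 kb. The region at 122744873 also counts for Nanog, so Slc2a3 and Nanog shared all 3 of the Nanog regions.

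Slc2a1 encodes GLUT1, the carrier of basal glucose uptake, and had 2 regions, both upstream. One was 985 bp wide, at percentile 99.9, with 3 listed summits, at chromosome 4, 119071388 to 119072372, 36.9 kb from the gene. It was the widest region near any transporter gene, and Slc2a1 was its nearest gene. The other, at 119095821 to 119096003, had the smallest width of the list (183 bp) and lay 12.8 kb from the gene. Slc2a2, the glucose carrier of liver and pancreatic beta cells, had 1 region, 45.2 kb upstream, which lay inside Tnik. The insulin-responsive Slc2a4, the fructose carrier Slc2a5, the urate carrier Slc2a9, the myo-inositol carrier Slc2a13, and Slc2a6, Slc2a7, Slc2a8, Slc2a10 and Slc2a12 had none. Their nearest regions were 61.5 kb (Slc2a12) to 350 kb (Slc2a6) away. The hexose carriers had 9 regions in all, with 6 at Slc2a3, 2 at Slc2a1 and 1 at Slc2a2.

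**Figure D3:**
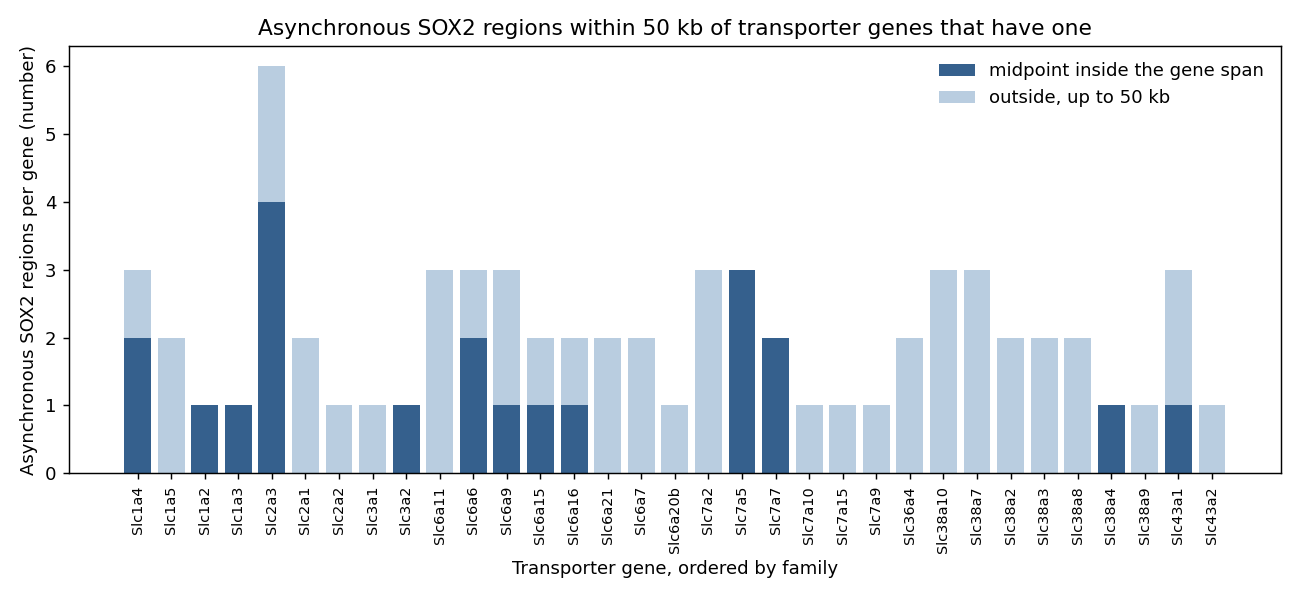
Number of asynchronous SOX2 regions (vertical axis) within 50 kb of 33 transporter genes that have one (horizontal axis, ordered by family); dark bars count midpoints inside the gene span and light bars those outside. Slc2a3 stands highest with 6 regions, 4 of them inside, and Slc7a5 has all 3 of its regions inside.

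In the Slc1a family, the regions lay at the neutral amino acid carriers and at the glial glutamate carriers. Slc1a4 (chromosome 11, 20302180 to 20332713) had 3, of which 2 were inside, 27.1 and 11.9 kb downstream of the start, and 1 was upstream. It was the nearest gene of all 3. Slc1a5 encodes ASCT2, a main entry route for glutamine, at chromosome 7, 16781334 to 16798274. A region at 16781030 to 16781342 (313 bp) reached across one end of its span, and a second, 23.3 kb away, lay inside Strn4. Slc1a2 and Slc1a3, which clear glutamate in the brain, had 1 region each inside the gene, of 220 and 292 bp, 67.6 and 12.6 kb downstream of the start. Slc1a1, Slc1a6 and Slc1a7, the remaining glutamate carriers, had none, with nearest regions at 94.4, 252 and 169 kb.

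Both heavy chains had 1 region. Slc3a2 encodes 4F2hc, the partner of most light chains, and had a 208 bp region inside its span at chromosome 19, 8716463 to 8716670, 2.67 kb upstream of the start listed by RefSeq. Slc3a1 encodes rBAT, the partner in the kidney cystine exchanger, and its region lay 20.02 kb downstream, inside Prepl.

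Among the 10 light chains and their relatives, 5 had a region (50%, exact interval 18.7 to 81.3%). Genes of the same length had 52.9%. Slc7a5 and Slc7a7 held theirs inside the gene. Slc7a5 encodes LAT1, which imports leucine and other large neutral amino acids, at chromosome 8, 121881146 to 121907686. Its 3 regions were at 121881890 to 121882113, 121886697 to 121887050 and 121887655 to 121887854, between 0.856 and 6.61 kb from the lower-coordinate end. Slc7a7, an exchanger of cationic and neutral amino acids, had 2, which were 5.74 and 2.15 kb downstream of the outermost of its 5 listed starts, with another listed start 1889 bp from the nearer region. Slc7a9, the light chain of the cystine exchanger, had 1 region 1.95 kb downstream, inside Tdrd12. Slc7a10 and Slc7a15 had 1 each, at 15.4 and 30.3 kb. Slc7a6, Slc7a8, Slc7a11, Slc7a12 and Slc7a13 had none.

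Of the 4 cationic amino acid carriers and their relatives, 1 had a region (25%, exact interval 0.631 to 80.6%). Genes of the same length had 54.1%. Slc7a2 had 3 regions, all inside its neighbour Pdgfrl, 16.3, 17.2 and 41.2 kb from Slc7a2. Slc7a1, the widely expressed arginine and lysine carrier, had its nearest region at 67.2 kb, Slc7a4 at 72.4 kb and Slc7a14 at 95.6 kb.

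Among the neurotransmitter carriers of the Slc6a family, Slc6a11, a GABA carrier on chromosome 6 (114131241 to 114249886), had 3 regions, all outside the gene. One, of 505 bp, lay 36.7 kb upstream, and another, at 114264438 to 114264692 (255 bp), lay 14.7 kb downstream. Slc6a11 was the nearest gene of both. Slc6a9 encodes the glycine carrier GlyT1 and had 3. One, of 183 bp, lay inside the gene 0.434 kb from the end opposite its start, and the others lay inside Dph2 and Ipo13, 20.5 and 32.4 kb downstream. The noradrenaline, dopamine and serotonin carriers Slc6a2, Slc6a3 and Slc6a4, the glycine carrier Slc6a5 and the GABA carriers Slc6a12 and Slc6a13 had none, and Slc6a4 lay furthest from a region of all 71 genes, at 436 kb.

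Of the other 10 Slc6a carriers, 6 had a region (60%, exact interval 26.2 to 87.8%). Genes of the same length had 50.1%. Slc6a6, the taurine carrier, had 3 (chromosome 6, 91684048 to 91759063): 2 inside, of 459 and 384 bp, and 1 at 5.38 kb. It was the nearest gene of all 3. Slc6a15, a carrier of branched-chain amino acids and proline, had 1 inside, 1.38 kb from an end, and 1 at 44.3 kb. Slc6a7, the brain proline carrier, had a region 0.405 kb outside its span at chromosome 18, 60994834 to 60995108. Its second region, of 621 bp, was 20.5 kb away and inside Cdx1, a homeobox gene. Slc6a16 and its neighbour Slc6a21 shared both of their regions, of which 1 lay inside Slc6a16 and 1 inside Trpm4. Slc6a20b had 1 region at 39.0 kb. Its neighbour Slc6a20a had none, with the nearest region at 52.6 kb. Slc6a17, Slc6a18 and Slc6a19 had none.

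**Figure D4:**
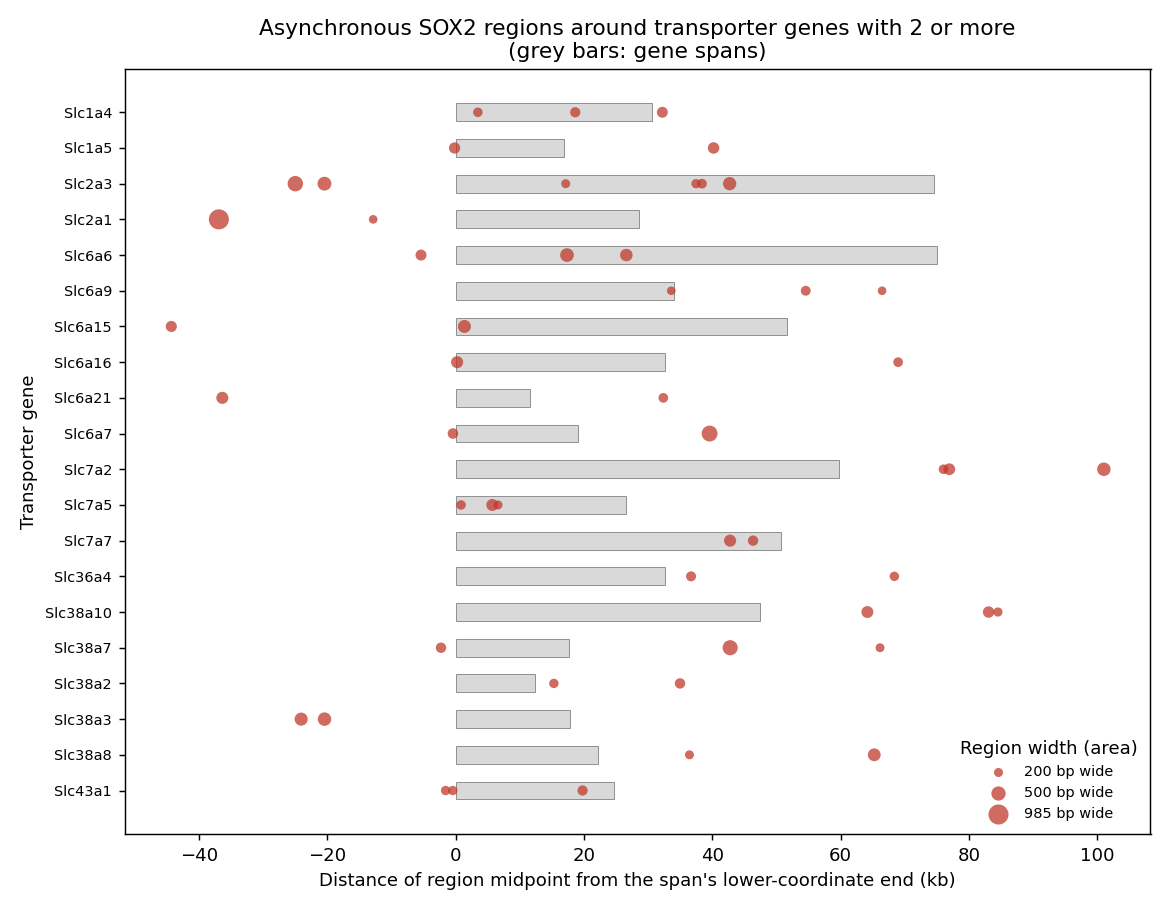
Position of asynchronous SOX2 regions (red points, area proportional to width in bp) around 20 transporter genes with 2 or more, as the distance in kb of the midpoint from the lower-coordinate end of the gene (horizontal axis); grey bars are gene spans, 1 row per gene, in order of coordinate and not of strand. The 6 points of Slc2a3 include 4 on its grey bar, and the largest point is the 985 bp region 36.9 kb from Slc2a1.

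The Slc38a family, sodium-coupled carriers of glutamine and other neutral amino acids and their lysosomal relatives, had regions mostly outside the genes. So did the whole set, with 44 of 66 distinct regions outside every transporter gene. Slc38a2 encodes SNAT2, which cells induce when amino acids are short. It had 2 upstream regions, at chromosome 15, 96702603 to 96702820 and 96722227 to 96722493, 2.98 and 22.6 kb from the gene, and was the nearest gene of both. Slc38a10 had 3 upstream regions at 16.8, 35.6 and 37.1 kb, all nearest to it. Slc38a7, a lysosomal glutamine exporter, had a region 2.26 kb downstream. Its 2 upstream regions, of 563 and 196 bp, were nearest to Got2, an aminotransferase gene that the wider one lay inside. Slc38a3 and Slc38a8 had 2 each, all inside neighbouring genes (Gnai2 and Mbtps1). Slc38a4, an imprinted carrier gene, was the family's single gene with a midpoint inside, of 318 bp. It was 27.7 kb downstream of the outermost of the 3 listed starts of Slc38a4 and 2903 bp downstream of another. Slc38a9, an arginine sensor of the lysosome, had 1 region of 734 bp (percentile 99.1) 32.0 kb downstream, which was nearer to Plpp1. Slc38a1, Slc38a6 and Slc38a11 had none, with nearest regions at 59.3, 192 and 257 kb.

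Slc43a1 (chromosome 2, 84838855 to 84863586) had 3 regions and was the nearest gene of all 3. Those at 84837202 to 84837418 and 84838321 to 84838535 were 1.55 and 0.427 kb outside the span, and another, of 257 bp, was inside. Slc43a2, a related carrier of neutral amino acids, had 1 region 44.2 kb downstream, inside Pitpna. Slc43a3, which carries purine nucleobases, had none, with the nearest at 77.9 kb. In the proton-coupled family, Slc36a4 had 2 regions, 4.04 and 35.7 kb downstream, and was the nearest gene of both. The neighbours Slc36a1, Slc36a2 and Slc36a3 had their nearest regions at 365, 319 and 285 kb.

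Of the 37 genes without a region within 50 kb, 18 had one between 50 and 100 kb and 19 had none within 100 kb. At 100 kb or less, 73.2% of transporter genes and 64.7% of all genes had a region. The order went back and forth with distance, with 80.3% against 82.6% at 200 kb and 97.2% against 93.1% at 400 kb. The median distance was 59.3 kb for transporter genes and 56.8 kb for all genes. Transporter genes had longer spans, with a median of 34.05 kb against 17.49 kb for all genes. No share in genes of the same length was taken beyond 50 kb. Numbers in the peak names follow position along each chromosome and reach 15590, of which 5239 (33.6%) are not in the list. For 32 of the 37 genes, at least 1 such number falls between the listed regions on either side of the window, so these genes lack a listed region only. For Slc2a13, Slc6a2, Slc7a8, Slc7a13 and Slc43a3 no number was missing there.

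**Figure D5:**
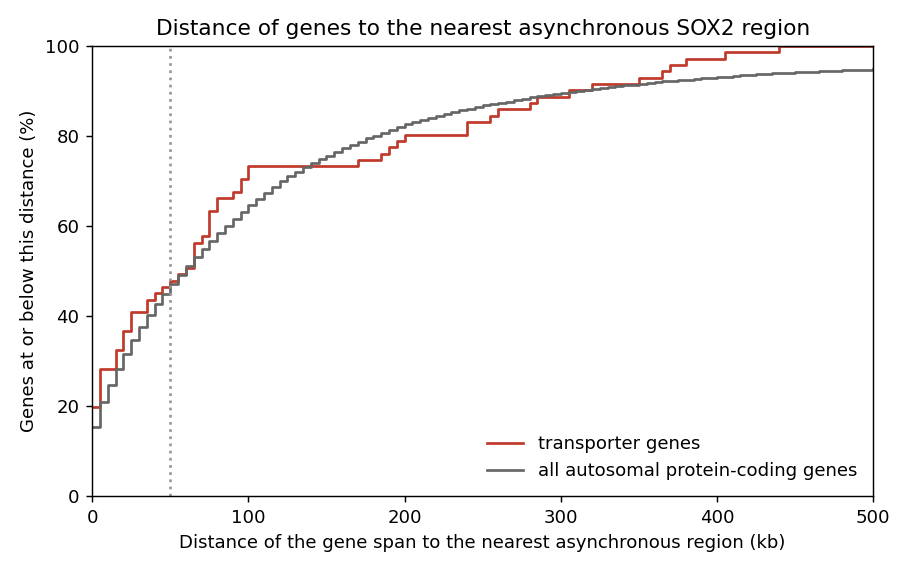
Cumulative percentage of genes (vertical axis) by distance in kb to the nearest asynchronous SOX2 region (horizontal axis, 0 for a midpoint inside the gene), for the 71 transporter genes (red) and all autosomal protein-coding genes (grey); the dotted line marks 50 kb. The curves meet near 50 kb (47.9% and 47.2%), and the red curve is higher at 100 kb (73.2% against 64.7%). The curves are not matched for gene length.

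Enzymes, sensors and related genes that handle the transported nutrients were counted in the same way, from lists of 18 genes each. The lists also hold the carriers Slc16a1, Slc16a3 and Slc16a10 and the transcription factor Atf4. Of 17 autosomal glycolysis genes, 9 (52.9%, exact interval 27.8 to 77.0%) had an asynchronous region within 50 kb, where genes of the same length had 47.9%. Hk2, the hexokinase that traps glucose in the cell, and Eno1, enolase, had 3 each, and Ldhb, a lactate dehydrogenase subunit, had 2. Gapdh, Tpi1, Aldoa, Pfkm, Pfkp and the lactate exporter Slc16a3 had 1 each. Hk1, Gpi1, Pfkl, Aldoc, Pgam1, Pkm, Ldha and Slc16a1 had none. Of 18 genes of amino acid metabolism and sensing, 14 (77.8%, 52.4 to 93.6%) had one, against 49.6% for genes of the same length and 47.2% for all genes. Rptor, a subunit of the amino acid-sensing kinase complex mTORC1, had 4. Its kinase Mtor, asparagine synthetase (Asns) and Got2 had 3 each. Psat1 and Shmt1, of serine and glycine synthesis, and Glud1, of glutamate breakdown, had 2 each. Tdh, the threonine dehydrogenase characteristic of mouse embryonic stem cells, had 1, inside the gene. Gcat, Got1, Shmt2 and Slc16a10 had none. Both lists were chosen with earlier results of these data known, so their intervals describe the counts only. No test of either list was made, and the 3 regions of Got2 are those also counted for Slc38a7.

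No transporter gene lay within 50 kb of a mitotic region. All genes had a share of 0.886% (183 of 20665) and genes of the same length 0.981%, or 0.696 of 71 genes, so a count of 0 was not distinguishable from the background with 84 regions. With 0 of 71, shares of up to 4.23% (3 counts of the total) or 5.06% (upper bound of the exact 95% interval) remain possible. The nearest was Slc6a5, with a region 99.7 kb away inside Prmt3 (chromosome 7, 49807274 to 49807382, 109 bp). Next came Slc6a13 and Slc6a12, at 169 and 212 kb from a region inside Mical3, then Slc7a5 at 245.5 kb and Slc2a12 at 260 kb. Within 500 kb were 5 of the 71 genes (7.04%), against 5.77% of all genes. Of these 5 genes, only Slc7a5 also had an asynchronous region within 50 kb. Slc2a3, with the most asynchronous regions, was 1597 kb from the nearest mitotic one, and Slc2a1 18240 kb. The mitotic list carries the looser of the 2 q-value tags in the deposited names, read as 0.05 against 0.01.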

How the data were processed

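Reads were processed with Bowtie2 2.2.1 and MACS2 on mm10, per the submitters' processing notes. Per the deposited names, the authors called peaks of ChIP against input on 3 pooled replicates per condition and left out blacklisted regions; other settings are not given in the sources used here. The deposited lists hold positions in bp, with no score, fold, p or count.

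Of 10532 asynchronous entries, those with equal coordinates were merged. Gene spans came from RefSeq (GRCm38.p6), strand and starts from RefSeq promoter windows. Members are symbols ending in the family name, a number and at most 1 letter; Slc7a6os and 4 genes on X were left out. The members, gene lists and roles were chosen with earlier results of these data known. Length-class values average, over members, the share among other genes in 10 equal classes of span length (5 of gap to neighbours as an alternative). With 1 list per condition no test was made. The genes named are those with a mitotic region within 50 kb, a region within 1 kb of an end, the 25 with the most regions, the widest region and each family's highest; the other members are named after their values were seen. Some values are not reported here. Counting was tested on simulated data. Python 3.11.15, numpy 2.4.6, pandas 2.3.3, scipy 1.17.1 and matplotlib 3.10.9 were used.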

Additional observations from a re-analysis of the deposited data

How the results depend on the processing

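Of 30 recomputed values over 12 results, 17 stayed within the main value's exact interval, or within 1.5 times for counts, and 13 did not, mostly because a smaller or larger window takes in fewer or more regions by construction. The share of transporter genes with an asynchronous region was 28.2% within 10 kb (all genes 24.7%), 73.2% within 100 kb (64.7%), 32.4% by nearest gene only (23.9%) and 33.8% with regions wider than the list median (27.7%). These shares of all genes are not matched for gene length. No length-class share was taken within 100 kb or for the wider regions. Within 10 kb, the genes with a region were 1 for Slc2a, 1 for Slc3a, 3 for Slc7a, 3 for Slc38a and 1 for Slc43a. Within 100 kb they were 9 for Slc2a, 14 for Slc6a and 10 for Slc7a. The Slc2a count thus went from 1 of 12 genes within 10 kb to 3 within 50 kb and 9 within 100 kb. At 50 kb the exact interval of this family included its length-class share, 52.3%. Families were not compared with length classes at the other windows. For mitotic regions the count was 1 of 71 within 100 kb, where all genes had a share of 1.5%. Length-class shares ran from 51.8% to 53.2% over the other classes of length and gap. No paired analysis was possible because each condition is 1 list from pooled replicates, and none could be left out. The lists give no depth, so a gene without a region may hold one below the threshold.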

Other observations

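The 4 transporter genes of these families on the X chromosome were not among the 71. Slc7a3, a carrier of cationic amino acids, had 1 asynchronous region inside the gene. Slc6a8, the creatine carrier, had 1 at 3.52 kb, and Slc38a5, a glutamine carrier, 1 at 32.3 kb. Slc6a14 had none, with the nearest at 370 kb. With these genes included, 49.3% of transporter genes had a region, against 45.5% of protein-coding genes on all chromosomes. Gene length was not matched in that comparison. None of the 4 had a mitotic region within 50 kb.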
